A study of Sus scrofa with 10 samples.

Results

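The subcortical maternal complex and the oocyte effector genes were described here across pig morulae. The 9 genes named for the set were NLRP5, OOEP, KHDC3L, TLE6, PADI6, NPM2, KPNA7, WEE2 and MOS, and members were the gene and isoform rows that carry those names. Rows were found for 6 of the 9 (OOEP, PADI6, NPM2, KPNA7, WEE2 and MOS), with 7 isoforms, out of 24358 genes and 47421 isoforms listed. No row is named NLRP5, KHDC3L or TLE6. All 6 genes found passed the filter on low values (a mean of at least 1 FPKM over all libraries, a level scaled to transcript length and library size), as did 6 of the 7 isoforms, among 8476 genes and 11250 isoforms tested.

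The libraries were made from RNA of parthenogenetic morulae, which carry no paternal genome. Porcine matured oocytes were injected either with an siRNA directed at DDB1 (DDB1_KD, 5 libraries) or with a non-specific siRNA as negative control (NC, 5 libraries), then activated parthenogenetically and grown to morulae, the stage of compaction. Injection and activation were thus common to both groups. The labels give neither the number of embryos per library nor whether replicates were separate cultures, so p-values cover only the spread among these libraries, some of it perhaps technical.

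The genes of this set are transcribed mainly during oocyte growth, and their RNA and protein are passed to the embryo. The subcortical maternal complex, known best from mouse and human, is an assembly beneath the oocyte and embryo cortex built around NLRP5, OOEP, TLE6 and KHDC3L (Khdc3 in mouse), and mouse females that lack its core parts produce embryos that arrest at early cleavage. The effectors beside it act on cytoplasmic storage, chromatin, nuclear import and the control of meiotic arrest. Much of the maternal RNA is degraded as the embryo activates its own genome, so by the morula stage such transcripts are usually residual.

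Totals were 32466912 to 50911295 estimated counts per library. DDB1, the targeted gene and an adaptor in CUL4 ubiquitin ligases, was at 0.920 to 1.55 FPKM in DDB1_KD morulae and 2.53 to 4.44 FPKM in NC morulae, without overlap (log2 fold change -1.39, SE 0.28, edgeR quasi-likelihood adjusted p = 0.977, DESeq2 adjusted p = 0.0069). Embryo markers were all above the filter (9 of 9, among them KRT18, DPPA2 and POU5F1), with summed levels of 281 to 734 FPKM in DDB1_KD and 438 to 926 FPKM in NC. Of 13 cumulus and granulosa markers listed, 2 passed the filter (VCAN and NR5A2), and AMH, FSHR, CYP11A1 and INHA were at 0 counts throughout (a limit of 3 counts per library). The summed cumulus markers were at 1.87 to 5.59 FPKM in DDB1_KD and 1.87 to 4.97 FPKM in NC. Of 8 fibroblast and blood markers, 2 passed the filter (CD74 and HBB), and the sum was 49.9 to 86.2 FPKM in DDB1_KD and 67.9 to 96.7 FPKM in NC. CD74 alone made up nearly all of it, at 49.8 to 83.3 FPKM in DDB1_KD and 66.2 to 87.5 FPKM in NC, and COL1A1, COL1A2, COL3A1, LUM and PTPRC were each at 0.128 FPKM or less. Libraries stood apart within the DDB1_KD group. Replicate 1 was among the lowest 3 libraries for all 6 genes and replicate 2 among the highest 3 for 5 of them, so fold changes are also given without each of these libraries.

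No gene of the set passed the test between DDB1_KD and NC morulae. The fitted log2 fold change (DDB1_KD over NC, edgeR's quasi-likelihood test on estimated counts) was above 0 for all 6 genes found, from 0.38 for OOEP to 1.39 for KPNA7, with a median of 0.73. Over all 8476 tested genes the median was 0.00 and 50% had a value above 0. Each of the 6 had an adjusted p (Benjamini-Hochberg over all tested genes) of 0.977, against a threshold of 0.05 that 0% of genes passed with edgeR, 0% with limma and 0.0236% with DESeq2 (2 genes, no member of the set among them). None had an unadjusted p under 0.05, which 2.89% of genes had. Without DDB1_KD replicate 1, the edgeR unadjusted p was 0.0178 for PADI6 and 0.0217 for KPNA7 (adjusted p = 0.881 for both). In that fit 402 of 8476 genes had an unadjusted p under 0.05. Without NC replicate 3, the edgeR unadjusted p of KPNA7 was 0.0496 (adjusted p = 0.950), where 288 of 8476 genes were under 0.05. DDB1_KD replicate 1 was the lowest library for PADI6 and KPNA7, and NC replicate 3 the highest NC library for KPNA7. Leaving either out therefore widens the difference of those genes. In none of the 6 did the groups separate, where 0.413% of genes showed no overlap. No isoform of the set passed either, where 0.00889% of isoforms did (1 of 11250). The direction was known from earlier results on maternal transcripts in these same libraries and is not independent evidence. In bulk RNA of whole embryos, fewer cells or embryos carrying a transcript cannot be told apart from less RNA per cell.

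**Figure D1:**
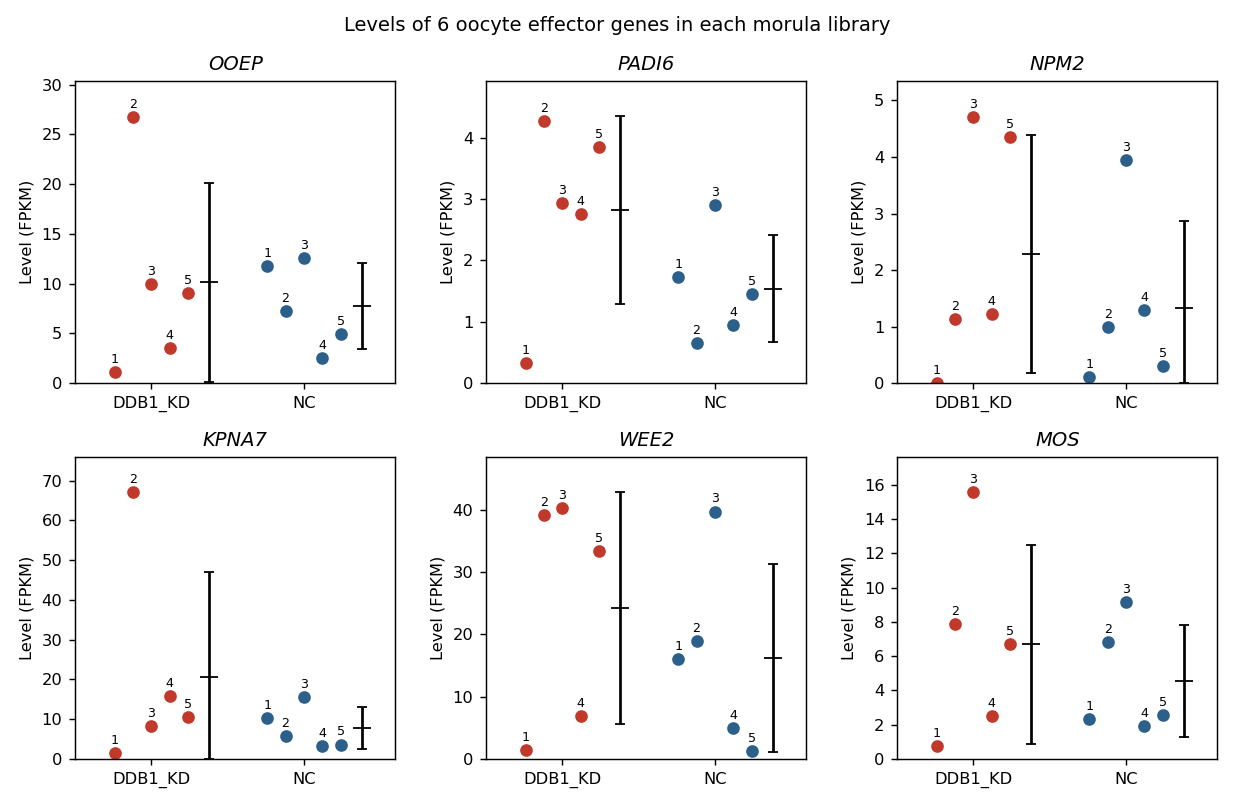
Level in FPKM (vertical axes from 0, 1 scale per gene) of the 6 genes in each library, with the replicate number above each point and the mean and SD of the group as a bar to the right (the lower bar ends at 0). DDB1_KD points span the NC range or more for all genes but WEE2, whose lowest library is NC replicate 5 at 1.21 FPKM.

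Among the parts of the cortical complex and its surroundings, only OOEP and PADI6 had named rows with counts. OOEP, a KH-domain-like protein of the complex's core that mouse embryos need for early cleavage, spans 53006898 to 53007877 of chromosome 1, minus strand, in the susScr11 build (ENSSSCG00000004285), with 1 isoform of 3 exons. Its level was 1.16, 26.8, 10.0, 3.58 and 9.09 FPKM in DDB1_KD replicates 1 to 5, against 11.8, 7.21, 12.6, 2.51 and 4.94 FPKM in NC replicates 1 to 5. The DDB1_KD group held both the lowest and the highest library, and all 5 NC libraries lay between them. The mean was 10.1 ± 10.0 FPKM in DDB1_KD morulae against 7.80 ± 4.33 FPKM in NC morulae (n = 5 each, SD), and the log2 fold change was 0.38 (SE 0.69, edgeR unadjusted p = 0.592). That value turned to -0.31 without DDB1_KD replicate 2, the library with 26.8 FPKM, and was 0.68 without DDB1_KD replicate 1. An unnamed gene, ENSSSCG00000004284, overlaps 790 bases of OOEP on the other strand with 0 to 32 counts, beside 24 to 527 counts for OOEP. Use of strand in the counting was not given in the sources used here, so reads from the overlap cannot be told apart.

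PADI6, an arginine deiminase family member that in mouse oocytes is required for the cytoplasmic lattices on which maternal components are stored, spans 75969886 to 75987096 of chromosome 6, plus strand (ENSSSCG00000003484; 16 exons). It had 0.323, 4.27, 2.93, 2.76 and 3.84 FPKM in DDB1_KD replicates 1 to 5, against 1.73, 0.652, 2.91, 0.954 and 1.46 FPKM in NC replicates 1 to 5. DDB1_KD replicates 2, 3 and 5 lay above the highest NC library and replicate 1 below the lowest. The mean was 2.82 ± 1.53 FPKM in DDB1_KD morulae against 1.54 ± 0.874 FPKM in NC morulae (n = 5 each, SD), a log2 fold change of 0.90 (SE 0.58, edgeR unadjusted p = 0.148). The value was 0.73 to 1.24 when any 1 library was left out, with 1.20 without DDB1_KD replicate 1 and 0.73 without DDB1_KD replicate 2. Its chromosomal neighbour PADI4 was below the filter, as were PADI1, PADI2 and PADI3.

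TLE6, a Groucho-family corepressor homologue that binds OOEP and NLRP5 in the complex, was not named in the tables. A row without a symbol, ENSSSCG00000024588, is described there as TLE family member 6, under the NCBI gene number that RefSeq gives to TLE6. It had 0 counts in all 10 libraries, which allows up to 3 counts in each. That row spans 3973 bases, where RefSeq's TLE6 on the same assembly (Sscrofa11.1) spans 13036. NLRP5, the scaffold of the complex, and KHDC3L, its second KH-domain protein, have no row that the tables or the name tables pair with them, and no level is given for either.

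NPM2, the oocyte nucleoplasmin, is a histone chaperone known for decondensing sperm chromatin and organising oocyte nucleoli in mouse. The gene (ENSSSCG00000009610) spans 6289370 to 6303841 of chromosome 14, plus strand. It had 0, 1.13, 4.71, 1.23 and 4.35 FPKM in DDB1_KD replicates 1 to 5, against 0.109, 0.995, 3.94, 1.30 and 0.302 FPKM in NC replicates 1 to 5. DDB1_KD replicate 1 had 0 counts, which allows up to 3, and DDB1_KD replicates 3 and 5 and NC replicate 3 stood above the other 7 libraries. The mean was 2.28 ± 2.11 FPKM in DDB1_KD morulae against 1.33 ± 1.54 FPKM in NC morulae (n = 5 each, SD), a log2 fold change of 0.84 (SE 1.11, edgeR unadjusted p = 0.464). The value was 0.39 without DDB1_KD replicate 3 and 1.75 without NC replicate 3. Leaving out DDB1_KD replicate 1 gave 1.17, and leaving out DDB1_KD replicate 2 gave 1.02. With counts of 0 to 212 per library, NPM2 was the most thinly measured of the 6.

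The 2 listed NPM2 isoforms did not share the libraries in a fixed ratio. ENSSSCT00000051803 (941 bases, 8 exons) had 0, 49, 0, 4 and 111 estimated counts in DDB1_KD replicates 1 to 5 and 4, 45, 4, 68 and 15 in NC replicates 1 to 5. ENSSSCT00000010533 (871 bases, 8 exons) had 0, 0, 205, 38 and 101 in DDB1_KD and 0, 0, 134, 0 and 0 in NC. The high NPM2 of DDB1_KD replicate 3 and NC replicate 3 thus came almost wholly from the shorter isoform, DDB1_KD replicate 5 had similar counts of both, and NC replicates 1, 2, 4 and 5 had the longer alone. Only the shorter passed the filter, and it did not pass edgeR's test (adjusted p = 0.9997). Their spans overlap along nearly all of the gene, and the rule that divided reads between them was not given in the sources used here.

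**Figure D2:**
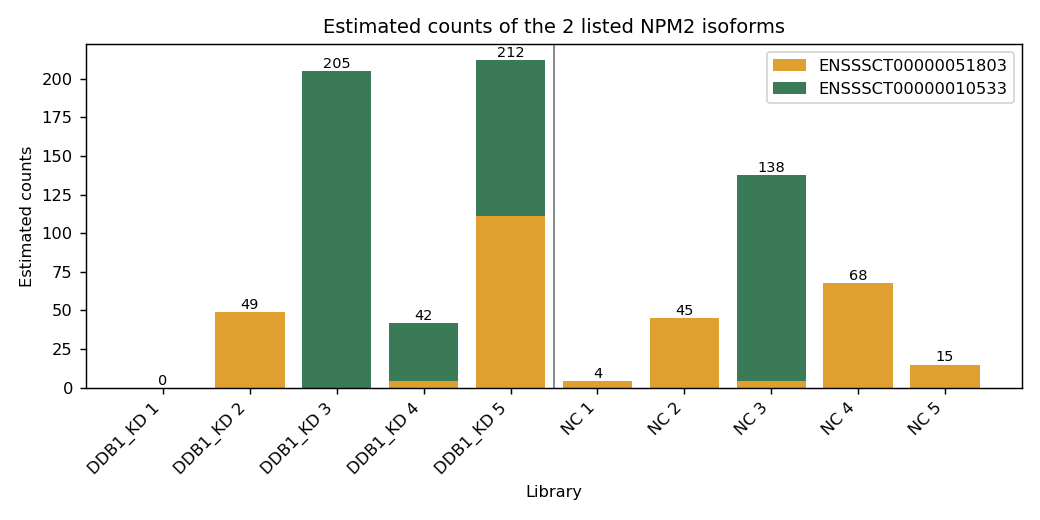
Estimated counts of the 2 NPM2 isoforms in each library, stacked, with the total above each bar. The shorter isoform (ENSSSCT00000010533) has counts in DDB1_KD replicates 3, 4 and 5 and, among NC libraries, in replicate 3 alone.

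KPNA7, an importin alpha restricted largely to oocytes and early embryos that carries nuclear proteins to their import receptor, had the largest fold change of the set. It spans 6167385 to 6201259 of chromosome 3, minus strand (ENSSSCG00000007607; 11 exons). Its level was 1.54, 67.1, 8.28, 15.8 and 10.6 FPKM in DDB1_KD replicates 1 to 5, against 10.3, 5.73, 15.6, 3.20 and 3.62 FPKM in NC replicates 1 to 5. DDB1_KD replicate 2 had more than any other library, replicate 4 was just above the highest NC library, and replicate 1 was below all NC libraries. The mean was 20.7 ± 26.4 FPKM in DDB1_KD morulae against 7.70 ± 5.26 FPKM in NC morulae (n = 5 each, SD), a log2 fold change of 1.39 (SE 0.76, edgeR unadjusted p = 0.0920). It was 0.24 without DDB1_KD replicate 2 but 1.71 without DDB1_KD replicate 1 and 1.80 without NC replicate 3. The medians were 10.6 FPKM in DDB1_KD and 5.73 FPKM in NC. A small-RNA gene (RF00004) within KPNA7 on the other strand had at most 4 counts.

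The kinases act on the meiotic cell cycle. WEE2, the oocyte form of WEE1 that phosphorylates CDK1 to hold prophase arrest and is needed again for exit from metaphase II, spans 8171138 to 8195957 of chromosome 18, minus strand (ENSSSCG00000016489; 12 exons). It had 1.41, 39.1, 40.3, 6.90 and 33.4 FPKM in DDB1_KD replicates 1 to 5, against 16.1, 18.9, 39.7, 4.95 and 1.21 FPKM in NC replicates 1 to 5. DDB1_KD replicates 2, 3 and 5 and NC replicate 3 were within 33.4 to 40.3 FPKM, and the next library, NC replicate 2, was at 18.9. The mean was 24.2 ± 18.6 FPKM in DDB1_KD morulae against 16.2 ± 15.1 FPKM in NC morulae (n = 5 each, SD), a log2 fold change of 0.62 (SE 0.88, edgeR unadjusted p = 0.495). It was 0.93 without DDB1_KD replicate 1 and 0.43 without DDB1_KD replicate 2. Leaving out NC replicate 5 gave 0.32, and leaving out NC replicate 3 gave 1.24.

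MOS, the kinase that starts the MAP kinase cascade behind the metaphase II arrest, is a gene of 1 exon spanning 75739402 to 75741076 of chromosome 4, plus strand (ENSSSCG00000006248). It had 0.729, 7.87, 15.6, 2.49 and 6.72 FPKM in DDB1_KD replicates 1 to 5, against 2.32, 6.82, 9.18, 1.95 and 2.54 FPKM in NC replicates 1 to 5. DDB1_KD replicate 3 was the highest library and DDB1_KD replicate 1 the lowest. The mean was 6.68 ± 5.78 FPKM in DDB1_KD morulae against 4.56 ± 3.25 FPKM in NC morulae (n = 5 each, SD), a log2 fold change of 0.59 (SE 0.70, edgeR unadjusted p = 0.414). Without DDB1_KD replicate 3 the value was -0.022, so its sign rested on that library. It was 0.89 without DDB1_KD replicate 1, 0.56 without DDB1_KD replicate 2 and 0.99 without NC replicate 3.

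**Figure D3:**
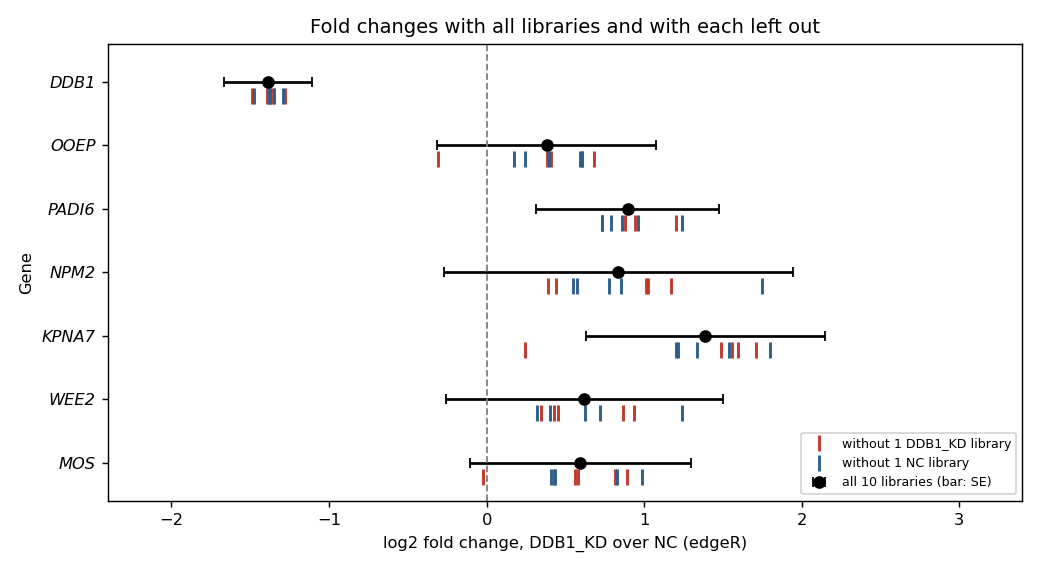
Log2 fold change (DDB1_KD over NC, edgeR) of DDB1 and the 6 genes, with the SE as a bar, and the values with 1 library left out as ticks beneath. DDB1 stays between -1.49 and -1.28, whereas KPNA7 is at 0.24 and OOEP at -0.31 without DDB1_KD replicate 2, and MOS at -0.022 without DDB1_KD replicate 3.

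Per length, WEE2 had the highest mean over the 10 libraries (20.2 FPKM), followed by KPNA7 (14.2), OOEP (8.96), MOS (5.62), PADI6 (2.18) and NPM2 (1.81). WEE2 was the highest of the 6 in 6 libraries, KPNA7 in 3 (DDB1_KD replicates 1, 2 and 4) and OOEP in 1 (NC replicate 5). The order of neighbours did not hold beyond the spread: the ratio of WEE2 to KPNA7 in FPKM ran from 0.335 in NC replicate 5 to 4.86 in DDB1_KD replicate 3. WEE2 was above MOS in 9 of 10 libraries, and PADI6 and NPM2 were each the lowest in 5. Among all tested genes, 23.9% had a mean FPKM at least as high as WEE2 and 82.3% one at least as high as NPM2.

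The spread between libraries was wide for the whole set. The SD of log2 CPM (TMM-scaled counts relative to library size) over the 10 libraries ran from 1.16 for PADI6 to 2.21 for NPM2, and the median over all tested genes was 0.51. A share of 9.18% of tested genes had an SD at least as large as PADI6, and 1.84% as large as NPM2. Within groups, the SD of log2 CPM was larger in DDB1_KD than in NC for all 6 genes, for example 1.89 and 0.96 for KPNA7. DDB1_KD replicate 1 was the lowest of its group for all 6. DDB1_KD replicates 2 to 5 alone spanned 2.64 to 3.38 for PADI6 (NC 0.82 to 2.83) and 0.22 to 2.39 for NPM2 (NC -2.62 to 2.02). For WEE2 they spanned 3.73 to 6.51 (NC 1.31 to 6.36). These 3 ranges were narrower than in NC, whereas those of OOEP, KPNA7 and MOS stayed wider. By the coefficient of variation of FPKM, 3 genes varied more in DDB1_KD and 3 more in NC, among these WEE2 (76.8% in DDB1_KD, 93.3% in NC). The difference in spread was not tested. The share of all tested genes with a larger SD in DDB1_KD was not computed, so the larger spread is not shown to be particular to this set.

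The summed level of the 6 genes was 5.16, 146, 81.8, 32.8 and 67.9 FPKM in DDB1_KD replicates 1 to 5, against 42.3, 40.3, 83.9, 14.9 and 14.1 FPKM in NC replicates 1 to 5. DDB1_KD replicate 1 was the lowest library for 5 of the 6 genes and next to lowest for WEE2, while NC replicate 3 was among the highest 4 for all 6. The log2 ratio of the group means of this sum was 0.77. It was 1.07 without DDB1_KD replicate 1, 0.26 without DDB1_KD replicate 2 and 1.26 without NC replicate 3. KPNA7 made up 45.9% of the sum in DDB1_KD replicate 2, whereas WEE2 made up 49.3% in DDB1_KD replicate 3.

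**Figure D4:**
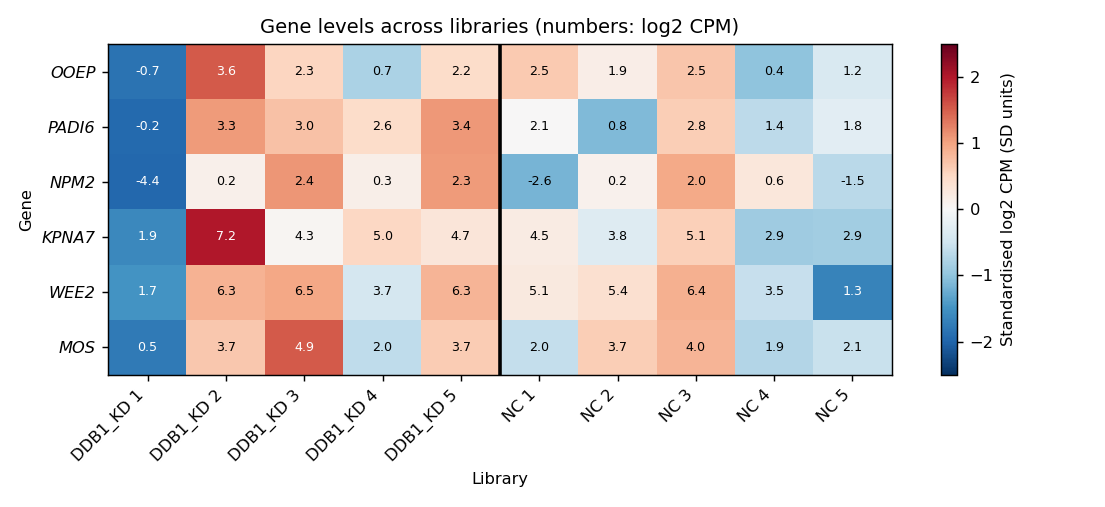
Log2 CPM (numbers) of the 6 genes in each library, coloured by the distance from the gene's mean over 10 libraries in SD units. DDB1_KD replicate 1 is low in every row, DDB1_KD replicates 2, 3 and 5 and NC replicate 3 are mostly high, and the groups on either side of the line overlap.

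Over the 15 pairs of genes, Pearson's r of log2 CPM across the 10 libraries ran from 0.50 (NPM2 with KPNA7) to 0.86 (WEE2 with MOS), with a median of 0.74. Spearman's rho ran from 0.30 (OOEP with NPM2) to 0.88 (WEE2 with MOS). For WEE2 with MOS the permutation p, adjusted over the 15 pairs, was 0.00879 for r and 0.0255 for rho. In all, 12 pairs passed 0.05 by the permutation test of r and 5 by that of rho. Without the 2 libraries farthest from the median of the first gene, always DDB1_KD replicate 1 and 1 other, r was 0.89 for WEE2 with MOS. It was 0.18 for OOEP with NPM2, 0.26 for NPM2 with KPNA7, 0.37 for KPNA7 with MOS and 0.43 for OOEP with PADI6. For the other 10 pairs it was 0.56 to 0.82. Leaving out the farthest libraries narrows the range of the first gene, which can by itself lower r. With all 10 libraries, only OOEP with PADI6 of those 4 pairs passed by r (permutation test, adjusted p = 0.0238). None of the 4 passed by rho. Taken as deviations from each group's mean, r was 0.49 to 0.87. The values of a library share its depth and scaling factor, and these genes were grouped with their behaviour in these libraries already known. The share of pairs of other tested genes that would pass was not computed, so the counts of pairs passing are a description.

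Other measures of the same libraries are set beside this pattern. The sum of embryo markers was 462, 281, 308, 734 and 443 FPKM in DDB1_KD replicates 1 to 5, and 926, 534, 473, 454 and 438 FPKM in NC replicates 1 to 5. The low sums of DDB1_KD replicates 2 and 3 came from the trophectoderm keratins. KRT18 had 108, 3.71, 12.6, 332 and 112 FPKM in DDB1_KD replicates 1 to 5, and 453, 231, 170, 119 and 143 FPKM in NC replicates 1 to 5. KRT8, its partner, was at 0.0754 and 4.44 FPKM in DDB1_KD replicates 2 and 3, and at 33.9 FPKM or more in the other 8 libraries. Other markers of the list were mixed there. POU5F1 was at 33.6 and 46.5 FPKM in DDB1_KD replicates 2 and 3 and at least 52.3 FPKM in NC. GATA3 was at 0 FPKM in DDB1_KD replicate 2 and at least 1.62 FPKM in NC. SOX2 and TFAP2C lay within the NC range in both libraries. CDH1, the epithelial cadherin, had its highest level of all libraries in DDB1_KD replicate 2 (39.7 FPKM), as did the pluripotency factor NANOG (11.2 FPKM). In DDB1_KD replicate 3, CDH1 was at 24.1 FPKM, the lowest of its group. DPPA2 was at 149 and 163 FPKM in DDB1_KD replicates 2 and 3 and at most 136 FPKM in NC. Summed without the keratins, a choice made after their values were seen, the 7 other markers were at 277 to 315 FPKM in DDB1_KD and 245 to 294 FPKM in NC. DPPA2 was the largest part of that sum in DDB1_KD replicates 2 and 3. Mitochondrial counts made up 12.2% to 24.4% of DDB1_KD libraries and 8.58% to 18.4% of NC libraries, with 12.2% and 16.8% in DDB1_KD replicates 1 and 2. Depth was similar in DDB1_KD replicate 1 (43272279 counts) and replicate 2 (42097669 counts). DDB1 itself was at 0.920 FPKM in DDB1_KD replicate 1 and 1.30 FPKM in replicate 2. The part of these measures in the result was not tested.

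The tested genes most like the set across the 10 libraries, by Pearson's r with the mean of the 6 genes' standardised log2 CPM, were ISL1 (r = 0.98), a LIM homeobox factor, MGAM2 (0.97), a maltase-glucoamylase homologue, PIH1D2 (0.97), ZNF436 (0.97), a zinc finger gene, and BMP15 (0.96), a growth factor secreted by oocytes. BMP15 had 20.6 ± 16.2 FPKM in DDB1_KD morulae against 7.15 ± 6.41 FPKM in NC morulae (n = 5 each, SD), with a log2 fold change of 1.57 (SE 0.92). ISL1 averaged 2.84 FPKM in DDB1_KD morulae against 1.54 FPKM in NC morulae. Without DDB1_KD replicates 1 and 2, the libraries farthest from the median of that mean, the 5 genes kept r of 0.91 to 0.99. Of 8470 genes outside the set, 282 (3.33%) had r of at least 0.8 57 had r of -0.8 or below, and the median was -0.06. The 5 were picked as the highest of these, so their r is a description.

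Further genes of the same pathways were taken from lists chosen with earlier results of these data known. The edgeR adjusted p over all tested genes was 0.977 for every listed gene named here, so none passed. Of 11 NLRP family and complex partner genes, 7 were listed and 4 tested, 3 with higher and 1 with lower values in DDB1_KD morulae (median 0.78 on the log2 scale). NLRP9, a family member known from oocytes in several mammals, had 15.6 ± 17.4 FPKM in DDB1_KD morulae against 6.03 ± 5.98 FPKM in NC morulae (n = 5 each, SD), with a log2 fold change of 1.45 (SE 0.85). The log2 fold change was 0.64 (SE 0.61) for NLRP11 and 0.91 (SE 0.90) for NLRP13. Without DDB1_KD replicate 2 NLRP11 was at 0.043, without DDB1_KD replicate 5 NLRP9 was at 0.54, and without NC replicate 3 NLRP13 was at 2.40. The median of the list was 0.45 without DDB1_KD replicate 2 and 1.54 without NC replicate 3. ZBED3, a partner of the complex in mouse, had at most 2 counts in a library.

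Of 19 tested genes that act with MOS and WEE2 in M phase or the MAP kinase cascade, 14 had higher and 5 lower values in DDB1_KD morulae (median 0.21 on the log2 scale). The smallest p belonged to MASTL, the Greatwall kinase that inhibits the phosphatase opposing CDK1, at 4.70 ± 1.61 FPKM in DDB1_KD morulae against 3.03 ± 0.777 FPKM in NC morulae (n = 5 each, SD), with a log2 fold change of 0.65 (SE 0.29, edgeR adjusted p = 0.977). CDK1, the kinase that WEE2 phosphorylates, was at 0.79 (SE 0.37) and the checkpoint gene BUB1B at 0.56 (SE 0.27). In this list 1 of 19 tested genes had an unadjusted p under 0.05, where 2.89% of all genes did.

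The families of KPNA7 and NPM2 were split. Of 15 importin, nucleoplasmin and histone chaperone genes tested, 6 had higher and 9 lower values in DDB1_KD morulae (median -0.04 on the log2 scale). The balance turned to 8 higher values without DDB1_KD replicate 2 (median 0.030), without DDB1_KD replicate 3 (0.020) and without NC replicate 1 (0.054). KPNA2, the importin alpha of most dividing cells, had 67.4 ± 28.3 FPKM in DDB1_KD morulae against 42.5 ± 9.57 FPKM in NC morulae (n = 5 each, SD), with a log2 fold change of 0.68 (SE 0.30). CSE1L, which exports importin alpha from the nucleus, was at 0.32 (SE 0.20) and ANP32A, an acidic histone chaperone, at -0.72 (SE 0.41). Without DDB1_KD replicate 5 CSE1L was at 0.19 and ANP32A at -1.16. Of 9 listed genes of the PADI and TLE families, TLE1, TLE3 and TLE4 alone passed the filter, with log2 fold changes of -0.85 (SE 0.41), -0.32 (SE 0.28) and -0.14 (SE 0.34). TLE4 turned to 0.030 without DDB1_KD replicate 3 and 0.023 without NC replicate 5. TLE3 was at -0.18 without NC replicate 3 and -0.17 without NC replicate 5.

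Of 24 other oocyte and maternal-effect genes tested, 19 had higher and 5 lower values in DDB1_KD morulae (median 0.37 on the log2 scale). ZP4, a zona pellucida glycoprotein, had the smallest p, with a log2 fold change of 2.02 (SE 0.66), followed by ZP2 at 1.06 (SE 0.54) and GDF9, an oocyte growth factor, at 0.97 (SE 0.56). Without DDB1_KD replicate 2 the list had 14 higher values and a median of 0.095, and ZP4 was at 1.30. Without NC replicate 3 GDF9 was at 1.52.

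**Figure D5:**
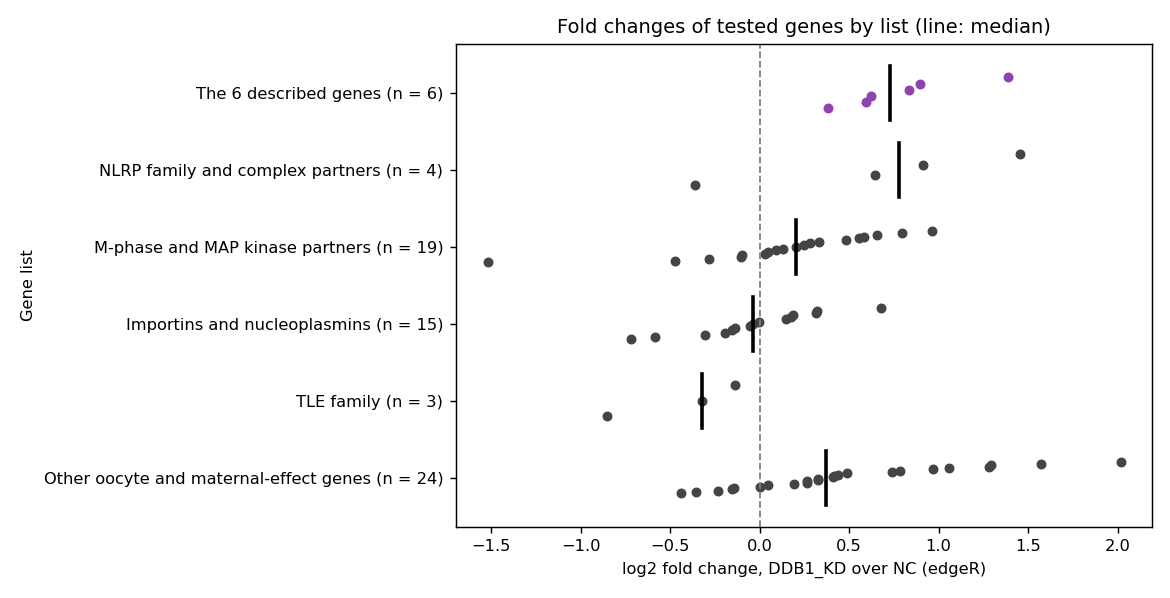
Log2 fold change (DDB1_KD over NC, edgeR) of each tested gene by list, with the median as a line. The 6 genes all lie above 0 (median 0.73), whereas the importin and nucleoplasmin list lies on both sides (median -0.04 with all libraries) and no gene shown passed the test.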

How the data were processed

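The deposited tables give, for each gene and isoform, FPKM and estimated counts per library, per the file headers. Their columns spell the DDB1_KD group DBB1 and were matched to samples by group word and number. The submitters' processing notes name edgeR, StringTie, ChIPseeker, HOMER, HISAT2 and fastp, with susScr11 as the build. The deposited estimated counts are whole numbers that equal FPKM times isoform length times 1 constant per library (100% of isoform counts above 0, within 1.5 counts plus 0.5%), a relation that both read tallies and coverage-derived estimates would show. The limits given for 0 counts hold for counting error alone. The deposited FPKM of 0.0001 stands for 0 counts and was taken as 0.

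All rows whose FPKM averaged 1 or more were fitted together, genes and isoforms apart, with edgeR 4.0.16 in R 4.3.3 (TMM, glmQLFit, glmQLFTest, group alone, Benjamini-Hochberg). The SE is the unshrunken coefficient over the root of F. DESeq2 1.42.0 and limma 3.58.1 (log2 of FPKM plus 1 or 0.1) were alternatives, beside scaling, filters, a replicate block and each library left out. The medians of the lists with libraries left out were added after seeing the data. Log2 CPM uses a prior count of 2, and correlations 100000 permutations. Symbols for the other lists came from the tables (17451 genes), Ensembl names (951) or RefSeq gene numbers (2152). Named are DDB1, the set, up to 3 genes of smallest p per list, the 5 genes most like the set, and up to 3 markers of highest level. Genes named outside that rule were chosen after their values were seen. The members and lists were chosen with earlier results of these data known. Python 3.11.15, pandas 2.3.3 and matplotlib 3.10.9 were used.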

Additional observations from a re-analysis of the deposited data

Results flagged for a closer look

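In 20 groups of 5 values looked at, 2 held a library far from the other 4. For normally distributed values chance flags about 1 group in 20, a rate that does not carry over to skewed FPKM values or to a group of 4 zeros and 1 value. KPNA7 in DDB1_KD replicate 2 was at 67.1 FPKM, and the next DDB1_KD library was at 15.8 FPKM. The shorter NPM2 isoform (ENSSSCT00000010533) was at 4.34 FPKM in NC replicate 3 and had 0 counts in the other 4 NC libraries.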

How the results depend on the processing

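Over the 6 genes and 18 alternatives each, 105 of 108 values kept their direction, and none passed an adjusted p of 0.05. The exceptions were OOEP at -0.31 without DDB1_KD replicate 2 and -0.064 with limma at a pseudocount of 0.1, and MOS at -0.022 without DDB1_KD replicate 3. The OOEP isoform gave -0.32 and the MOS isoform -0.029 without those libraries. The highest values with 1 library left out were 0.68 for OOEP, 0.99 for MOS, 0.67 for the OOEP isoform and 0.96 for the MOS isoform. TLE4 turned to 0.030 without DDB1_KD replicate 3 and 0.023 without NC replicate 5. Genes passing were 0 by edgeR (245 at an unadjusted p under 0.05), limma and each library left out, and 2 by DESeq2, DDB1 among them and no member. Isoforms passing were 1 by edgeR, 68 by DESeq2, 0 with no filter and 0 with the replicate block, and 0 to 2 with 1 library left out. The M-phase list's median was 0.13 to 0.37 with 1 library left out. The importin list had medians of -0.073 to 0.054 in the same way. Of the 5 genes most like the set by Pearson's r, 0 were among the 5 highest by Spearman's rho. The replicate block gave KPNA7 0.90 and NPM2 0.34. Deviations of same-numbered libraries correlated at -0.14 to 0.35, and 1 of 5 replicate numbers correlated best with itself. These values show no clear pairing by number, but 5 libraries per group are too few to settle whether same-numbered libraries shared a batch. Depth limits NPM2 most, at 0 to 212 counts.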

Other observations

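Rows without a name lie where RefSeq (Sscrofa11.1) places the absent genes, and they are given by their identifiers alone. ENSSSCG00000031929, a row of 250 bases on chromosome 6 within the span of NLRP5, had 0, 27, 22, 0 and 0 counts in DDB1_KD replicates 1 to 5, against 4, 0, 18, 0 and 2 counts in NC replicates 1 to 5. DDB1_KD replicates 2 and 3 and NC replicate 3 had the most. ENSSSCG00000004284, which covers 2128 of the 2369 bases of KHDC3L on chromosome 1 and overlaps OOEP, had 0, 32, 23, 6 and 20 counts in DDB1_KD replicates 1 to 5, against 8, 0, 6, 5 and 3 counts in NC replicates 1 to 5. ENSSSCG00000033090, a row of 3144 bases on chromosome 2 within the span of TLE6, had 20, 63, 29, 29 and 19 counts in DDB1_KD replicates 1 to 5, against 38, 10, 8, 19 and 18 counts in NC replicates 1 to 5. All 3 rows were below the filter, with no test, and DDB1_KD replicate 1 had 0 counts in the rows at NLRP5 and KHDC3L, which allows up to 3 in each. A further row at NLRP5, ENSSSCG00000028861, had 6 counts in NC replicate 3 alone.

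DPPA5, a gene of the same family as OOEP that lies 19280 bases from it on the same strand, had a log2 fold change of 0.87 in DDB1_KD over NC and r = 0.74 with OOEP across the 10 libraries. DDX43, 13345 bases from OOEP on its other side, had r = 0.23 with it. DPPA5 and DDX43 were picked after their values were seen.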
